A study of Mus musculus with 9 samples.

Results

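AP-1 subunits and immediate early genes were followed through 48 h of in vitro differentiation of mouse spermatogonial stem cells (SSCs). They were 10 genes chosen by name, of 46078 gene identifiers in the count files. They comprised the Fos family subunits of AP-1 (Fos, Fosb, Fosl1 and Fosl2), the Jun family subunits (Jun, Junb and Jund), the zinc finger factor Egr1 and the immediate early response genes Ier2 and Ier3. Poly(A) RNA of EGFP-SSCs, a single wild type (WT) cell line that carries EGFP, had been sequenced in 3 libraries at each of 0, 24 and 48 h, each labelled as a biological replicate. The 0 h cells grew on mitomycin C-exposed mouse embryonic fibroblasts in StemPro-34 medium with GDNF, basic fibroblast growth factor, epidermal growth factor and FBS. The 24 h and 48 h cells had been mixed with somatic cells of busulfan-exposed neonatal mouse testes in α-MEM with KSR, BMP-4/7, retinoic acid, activin A, testosterone, FSH and BPE, and EGFP-positive cells were then sorted by flow cytometry. The labels give that sort for 24 h and 48 h, while the study's results describe sorting at different stages without naming 0 h. Medium, feeder or co-cultured cells and time all changed between 0 h and 24 h, as did sorting if the 0 h cells were not sorted. The parts of these cannot be told apart.

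Immediate early genes are transcribed within minutes of a stimulus and need no new protein synthesis. Growth factors reach them through the ERK kinases, which phosphorylate ternary complex factors bound with SRF at their promoters. Fos family proteins bind DNA only as dimers, mostly with a Jun family protein, whereas Jun proteins can also pair with each other, and the dimer is called AP-1. Egr1 binds GC-rich sites and induces its own corepressor Nab2. Egr2 and Egr3 are known to respond to GDNF in cultured SSCs. In SSCs, GDNF and basic fibroblast growth factor sustain self-renewal in part through such kinases. Immediate early genes are also known to respond to enzymatic dissociation and sorting of cells.

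The libraries held 16825251 to 22201892 counts. Levels are given as CPM, counts scaled to a common library size, after TMM scaling, which evens out composition between libraries. A gene was called at an adjusted p of up to 0.05 in edgeR's quasi-likelihood test, 2-sided, with Benjamini-Hochberg adjustment over all genes tested, and every adjusted p comes from it unless stated. The 0 h libraries differed among themselves along GC content: the median deviation from the mean of all libraries over the 1096 most GC-rich of 10957 expressed genes was -0.299, 0.047 and 0.244 (log2) in replicates 1, 2 and 3, against 0.064 to 0.125 at 24 h and -0.184 to 0.009 at 48 h. Of the 10 genes, Jund (67.1% GC in its exons), Junb (62.6%), Ier2 (60.9%) and Fosl1 (58.5%) lay in that GC range, which began at 58.0%. Their changes are therefore given also from a fit with offsets for GC content and length where that moved a call. Undifferentiated spermatogonia markers summed to 1622 to 1882 CPM at 0 h and 263 to 293 CPM at 48 h, and differentiating markers to 66.8 ± 7.82 CPM (SD, n = 3) at 0 h, 1692 to 1753 CPM at 24 h and 1005 to 1050 CPM at 48 h.

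Promoter sequence was read from RefSeq for 7 of the 10 genes (build GRCm38.p6, 250 bases before the start), to show which known motifs of this circuit lie beside genes that moved differently. The RefSeq start is not that of GENCODE for every gene: the whole window of Fosl2 (chr5:32136222-32136471) lay in exons of Fosl2 itself, as did 29 bases of that of Ier3 and 6 of that of Fosb, and the window of Jund (chr8:70697489-70697738) ended well before the GENCODE start of the gene. Fos, which fell, Junb, which fell between 24 h and 48 h, and Jun, whose level did not pass the test in any comparison, are printed 5′ to 3′. Capitals mark TGACG, a short site bound by ATF and CREB factors.
Fos promoter, chr12:85473640-85473889, plus strand: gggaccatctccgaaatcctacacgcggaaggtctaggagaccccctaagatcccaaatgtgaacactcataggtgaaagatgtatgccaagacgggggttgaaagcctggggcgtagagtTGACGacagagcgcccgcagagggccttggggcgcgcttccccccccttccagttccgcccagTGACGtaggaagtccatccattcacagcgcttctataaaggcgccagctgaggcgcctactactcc
Junb promoter, chr8:84978749-84978998, minus strand: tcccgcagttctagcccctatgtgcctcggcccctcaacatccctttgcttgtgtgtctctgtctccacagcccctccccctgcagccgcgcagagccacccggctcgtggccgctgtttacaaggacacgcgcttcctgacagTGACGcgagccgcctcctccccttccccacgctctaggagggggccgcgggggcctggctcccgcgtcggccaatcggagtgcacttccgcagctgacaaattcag
Jun promoter, chr4:95052223-95052472, minus strand: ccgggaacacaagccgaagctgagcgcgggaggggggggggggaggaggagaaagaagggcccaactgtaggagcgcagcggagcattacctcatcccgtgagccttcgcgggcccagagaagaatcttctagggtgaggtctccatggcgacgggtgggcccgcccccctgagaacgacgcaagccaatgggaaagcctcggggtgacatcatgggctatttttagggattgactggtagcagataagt
Searched on both strands, TGACG lay in the windows of Fos (2 matches, starting 129 and 66 bases before the start), Fosb and Junb, 3 of 7, and in 17.7% of 32817 mouse promoters. It forms part of the full CRE (TGACGTCA), which none of the 7 held and 1.55% of all promoters did. The AP-1 site TGANTCA was in none of the 7 and in 6.75% of all. The EGR site GCGNGGGCG was in the windows of Fosb and, within its exons, Fosl2, both as GCGGGGGCG, and in 4.7% of all. The CArG box, the motif of SRF, was in none of the 7 windows and in 1.47% of all promoters. A match describes letters in the window, not binding, and the absence of one says nothing of sites further away or of variant letters. The Jun window holds tgacatca, a variant of the CRE letters that these searches do not match.

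In GENCODE M21 (GRCm38), Fos (ENSMUSG00000021250) lies at chr12:85473890-85477273, Fosb (ENSMUSG00000003545) at chr7:19302696-19310051, Fosl1 (ENSMUSG00000024912) at chr19:5447547-5455946 and Fosl2 (ENSMUSG00000029135) at chr5:32135801-32157842, and each has 4 exons in its longest transcript. Jun (ENSMUSG00000052684, chr4:95049034-95052222), Junb (ENSMUSG00000052837, chr8:84974484-84978718), Jund (ENSMUSG00000071076, chr8:70698949-70700616) and Ier2 (ENSMUSG00000053560, chr8:84661331-84662852) have a single exon in their longest transcript. Egr1 (ENSMUSG00000038418, chr18:34859823-34864984) and Ier3 (ENSMUSG00000003541, chr17:35821684-35822923) have 2.

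At 24 h, 6 of the 10 genes were called against 0 h. Jund rose, and Fos, Fosl1, Egr1, Ier2 and Ier3 fell. Over all genes tested, 25.5% were called, 11.4% higher and 14.2% lower. The median log2 fold change of the 10 was -0.46, against 0.01 over all genes. At 48 h against 0 h, 5 were called, the 5 genes that had fallen at 24 h, all of them lower (background 31.6%, with 13.0% higher and 18.5% lower; median -0.64 against 0.02). Both comparisons share the 0 h libraries. From 24 h to 48 h, 7 were called: Egr1 rose, and Fosl1, Fosl2, Junb, Jund, Ier2 and Ier3 fell (background 21.3%, with 8.61% higher and 12.7% lower; median -0.40 against -0.01). With library size alone in place of TMM, the share of calls that were higher went from 44.5% to 57.1% at 24 h and from 41.2% to 52.8% at 48 h against 0 h, and the median of all genes went to 0.118 and 0.127. All 10 genes passed the filter on low counts in each comparison. Without 24 h replicate 1, or without 24 h replicate 3, only 3 of the 10 were called at 24 h against 0 h, and without 48 h replicate 1 there were 4 from 24 h to 48 h.

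**Figure D1:**
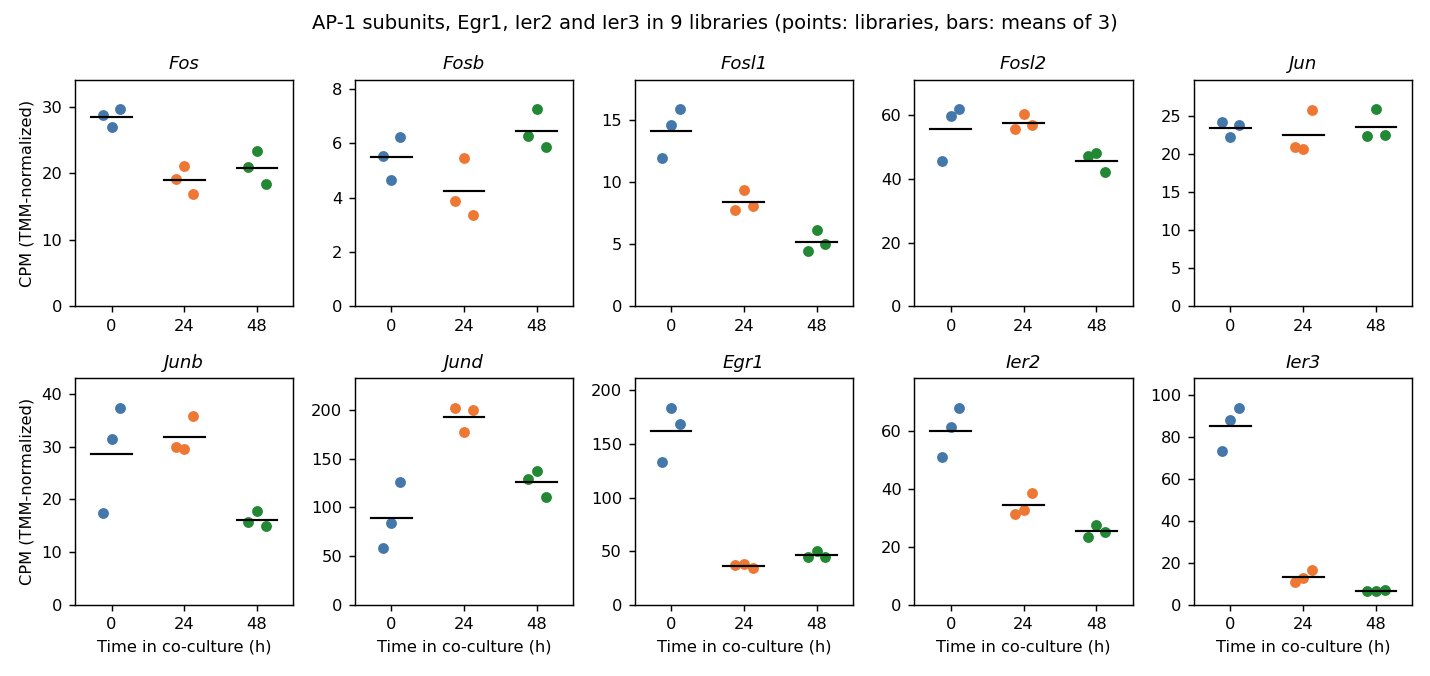
Level of each of the 10 genes in CPM (y axis, from 0) at 0, 24 and 48 h (x axis), with each point 1 library and each bar the mean of 3. Egr1 and Ier3 fall furthest by 24 h, Jund rises, and Jun stays between 20.7 and 25.9 CPM in all 9 libraries.

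Egr1, an early response factor induced by ERK signalling, stood at 133, 184 and 169 CPM in the 0 h libraries, at 36.9, 38.0 and 33.9 CPM at 24 h and at 44.8, 49.9 and 44.4 CPM at 48 h. Every 0 h library lay above every later one, and the 24 h and 48 h libraries did not overlap either. The level fell 4.42-fold by 24 h (log2 fold change -2.14 ± 0.14 SE, adjusted p = 7.59e-05, n = 3 and 3). Of the genes tested, 2.51% had a log2 fold change as low or lower. It was 3.49-fold lower at 48 h than at 0 h (log2 -1.80 ± 0.14, adjusted p = 0.000134). Between 24 h and 48 h it rose by 0.34 ± 0.08 on the log2 scale (adjusted p = 0.0162), a call lost without 24 h replicate 1 (log2 0.36, adjusted p = 0.051) and in the fit of all 9 libraries (adjusted p = 0.139). The order of levels was therefore 0 h, 48 h, 24 h, with the last step the weakest.

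Egr2 and Egr3, its closest relatives in DNA binding, were named by the rule for the pathway list. Egr2 stood at 67.8, 76.9 and 79.8 CPM at 0 h, at 6.14, 7.44 and 5.08 CPM at 24 h and at 4.87, 4.87 and 4.36 CPM at 48 h. On the log2 scale it fell by 3.58 ± 0.17 from 0 h to 24 h (adjusted p = 2.38e-05) and by 3.99 ± 0.13 from 0 h to 48 h (adjusted p = 5.7e-06). Egr3 stood at 23.3, 39.0 and 32.5 CPM at 0 h, at 0.491, 0.802 and 0.440 CPM at 24 h and at 1.31, 0.217 and 0.608 CPM at 48 h. Both genes were far lower in all 6 later libraries. Egr3 fell by 5.76 ± 0.30 on the log2 scale over the first 24 h and differed from 0 h by -5.50 ± 0.50 after 48 h (adjusted p = 3.01e-05 and 0.000242). Its 48 h libraries spread widely, but none reached a 0 h value.

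Egr4, a relative added after its values were seen, did not pass the test. It stood at 109, 191 and 241 CPM at 0 h, 105, 123 and 96.5 CPM at 24 h and 96.1, 109.9 and 105 CPM at 48 h, and the groups overlapped through 0 h replicate 1. Against 0 h the log2 difference was -0.72 ± 0.27 after 24 h (adjusted p = 0.0905) and -0.80 ± 0.26 after 48 h (adjusted p = 0.0563). Both were called without 0 h replicate 1 (log2 -0.98 and -1.06, adjusted p = 0.00274 and 0.00101) and with GC and length offsets (log2 -0.98 and -0.90, adjusted p = 0.000559 and 0.00035), and also in DESeq2, with no expression filter and in the fit of all 9 libraries (adjusted p from 0.0221 to 0.0432). The corepressors Nab1 and Nab2, also added after their values were seen, were lower at 24 h by 1.11 ± 0.27 and 1.12 ± 0.29 on the log2 scale (adjusted p = 0.0218 and 0.0259). Nab2 was lower at 48 h as well (log2 -1.34 ± 0.30, adjusted p = 0.0134), and Nab1 was not called there (log2 -0.72 ± 0.27, adjusted p = 0.0796). That difference of Nab1 was called without 0 h replicate 3 (log2 -0.95, adjusted p = 0.00145), with GC and length offsets (0.0424), in DESeq2 (0.0405), with no expression filter (0.0381) and in the fit of all 9 libraries (0.0351). Their 0 h libraries spread widely, in opposite directions: Nab1 stood at 73.7, 58.6 and 33.4 CPM and Nab2 at 37.9, 83.8 and 84.8 CPM. Nab1 lost its 24 h call without 0 h replicate 2 or any of the 24 h libraries (adjusted p from 0.0611 to 0.091), as did Nab2 (0.0902 to 0.0985). Nab2 lost its 48 h call without 0 h replicate 2, 48 h replicate 2 or 48 h replicate 3 (0.0515 to 0.0623).

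**Figure D2:**
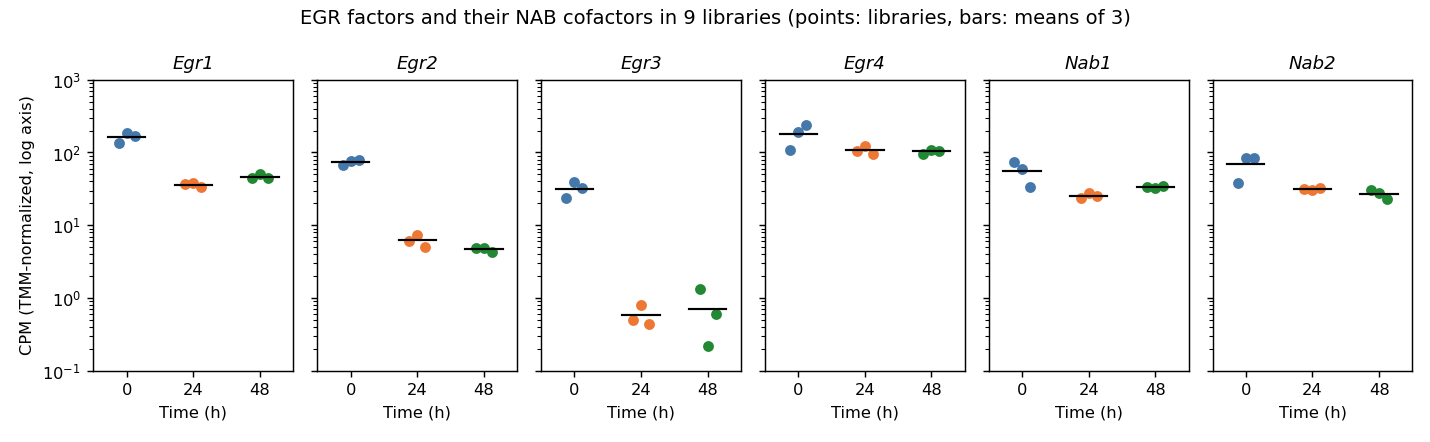
Level in CPM on a log axis (y) of 4 EGR factors and the 2 NAB corepressors at 0, 24 and 48 h (x), with each point 1 library and each bar the mean of 3. Egr1, Egr2 and Egr3 separate 0 h from both later times, while Egr4 and the NAB genes spread within 0 h.

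The Fos family subunits moved differently from each other. Fos, the founding member, stood at 28.8, 27.0 and 29.7 CPM at 0 h, at 19.2, 21.1 and 16.9 CPM at 24 h and at 20.9, 23.4 and 18.3 CPM at 48 h. The 0 h libraries lay above all 6 later ones, which overlapped each other. Against 0 h the log2 difference was -0.57 ± 0.13 after 24 h (adjusted p = 0.0172) and -0.45 ± 0.13 after 48 h (adjusted p = 0.0371). From 24 h to 48 h the difference was 0.12, with a 95% interval of -0.14 to 0.39. Both falls lay near the threshold. The 24 h call was lost without 24 h replicate 1 or 3 (adjusted p = 0.0695 and 0.0732), and the 48 h call without 0 h replicate 2 or 3 (0.0709 and 0.0738), without 48 h replicate 1 or 3 (0.139 and 0.153) and with GC and length offsets (log2 -0.32, adjusted p = 0.0654). The 48 h call was also lost with library size alone (0.0958) and with no expression filter (0.0673). With a replicate block both calls were lost (0.064 at 24 h and 0.105 at 48 h).

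Fosl1, the FRA1 subunit, fell at each step. It stood at 11.98, 14.6 and 15.9 CPM at 0 h, at 7.76, 9.36 and 8.06 CPM at 24 h and at 4.45, 6.13 and 5.02 CPM at 48 h. No library of one time overlapped another time. The log2 fold change was -0.74 ± 0.16 from 0 h to 24 h (adjusted p = 0.0143), -0.70 ± 0.16 from 24 h to 48 h (adjusted p = 0.0157) and -1.44 ± 0.19 from 0 h to 48 h (adjusted p = 0.0014), which is 2.72-fold. The whole fall held without each library in turn, while the first step lost its call without 0 h replicate 2, 24 h replicate 1 or 24 h replicate 3 (adjusted p = 0.0614, 0.0716 and 0.067) and the second without 24 h replicate 2 or 48 h replicate 1 (0.0542 and 0.0703). Ccdc85b on the opposite strand covers 57.2% of the exon bases of Fosl1. The sources used here do not say whether counting used strand, and without it reads of the pair cannot be told apart. Ccdc85b itself stood at 27.5 to 63.0 CPM at 0 h, 37.6 to 47.0 CPM at 24 h and 29.7 to 37.1 CPM at 48 h and was not called in any comparison.

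Fosl2, the FRA2 subunit, was level at first and lower at 48 h. It stood at 45.7, 59.7 and 62.0 CPM at 0 h, at 55.7, 60.3 and 57.0 CPM at 24 h and at 47.2, 48.2 and 42.2 CPM at 48 h. The 48 h libraries lay below all those of 24 h but overlapped 0 h through its replicate 1. The fall from 24 h to 48 h was 0.34 ± 0.08 on the log2 scale (adjusted p = 0.0141), lost without 48 h replicate 1 (log2 -0.34, adjusted p = 0.0569) and in the fit of all 9 libraries (adjusted p = 0.165). At 48 h against 0 h the log2 fold change was -0.28 ± 0.14 (adjusted p = 0.182), called without 0 h replicate 1 (log2 -0.41, adjusted p = 0.0283). Fosb was the least abundant of the family at each time per kilobase of exon. It stood at 5.55, 4.67 and 6.23 CPM at 0 h, at 3.88, 5.46 and 3.37 CPM at 24 h and at 6.29, 7.26 and 5.88 CPM at 48 h, on 69 to 167 counts a library. It was not called in any comparison. Its 48 h libraries all lay above those of 24 h (log2 0.61 ± 0.20, adjusted p = 0.0615), and that difference was called without 24 h replicate 2 (log2 0.83, adjusted p = 0.0243), with GC and length offsets (log2 0.77, adjusted p = 0.0188) and in DESeq2 (adjusted p = 0.048).

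Among the Jun family, Jund, a subunit that opposes proliferation in several cell types, was the only one of the 10 genes called higher at 24 h. It stood at 58.8, 83.6 and 126 CPM at 0 h, at 202, 178 and 200.4 CPM at 24 h and at 129, 138 and 111 CPM at 48 h. The 24 h libraries lay above all others, and the 0 h and 48 h libraries overlapped. The log2 fold change at 24 h was 1.13 ± 0.26 (adjusted p = 0.016), and 6.01% of the genes tested had one as high or higher. From 24 h to 48 h it fell by 0.63 ± 0.09 on the log2 scale (adjusted p = 0.00167), which was not called in the fit of all 9 libraries (adjusted p = 0.154). The 0 h values followed the GC trend of their libraries, lowest in replicate 1 and highest in replicate 3. With GC and length offsets the 24 h change was 0.88 ± 0.09 (adjusted p = 0.000175) and the change from 0 h to 48 h, 0.49 ± 0.26 without them (adjusted p = 0.199), became 0.42 ± 0.09 (adjusted p = 0.0059). The 24 h call was lost without 0 h replicate 2, 24 h replicate 1 or 24 h replicate 3 (log2 1.06, 1.08 and 1.11, adjusted p = 0.0751, 0.0644 and 0.0615), and the 48 h change was called without 0 h replicate 3 (log2 0.85, adjusted p = 0.00902). The antisense gene Gm11175, which covers 52.6% of the exon bases of Jund, had 0 counts in each library, where the 3 counts that a 0 allows are 0.130 to 0.187 CPM, for counting error only. As for Fosl1, whether counting used strand is not stated. Without it, reads of the shared bases may be dropped, and the 0 then sets no bound on Gm11175.

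Junb, which can restrain Jun-driven proliferation, stood at 17.3, 31.4 and 37.4 CPM at 0 h, at 30.0, 29.5 and 35.9 CPM at 24 h and at 15.7, 17.7 and 14.9 CPM at 48 h. The 48 h libraries lay below all those of 24 h, and 0 h replicate 1 lay among them. From 24 h to 48 h it fell by 0.99 ± 0.10 on the log2 scale (adjusted p = 0.000454), and 2.39% of the genes tested had a log2 fold change as low or lower. At 48 h against 0 h the log2 fold change of -0.83 ± 0.27 narrowly missed the threshold (adjusted p = 0.0504). That difference was called with GC and length offsets (log2 -0.64, adjusted p = 0.00444), in DESeq2 (adjusted p = 0.0226) and without 0 h replicate 1 (log2 -1.09, adjusted p = 0.00113). At 24 h against 0 h the interval of the log2 difference was -0.45 to 0.77. Jun itself, the classical partner of Fos, stood at 24.2, 22.2 and 23.8 CPM at 0 h, at 21.0, 20.7 and 25.9 CPM at 24 h and at 22.3, 25.9 and 22.5 CPM at 48 h. All its libraries overlapped, and the 95% intervals of its log2 differences were -0.35 to 0.26, -0.27 to 0.29 and -0.18 to 0.30 for 24 h against 0 h, 48 h against 0 h and 48 h against 24 h. A change within these bounds could not be told from none. Opposite-strand genes cover 7.28% of the exon bases of Jun (Junos) and 7.52% of those of Junb (Prdx2), and no other gene covers exons of the remaining 6.

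**Figure D3:**
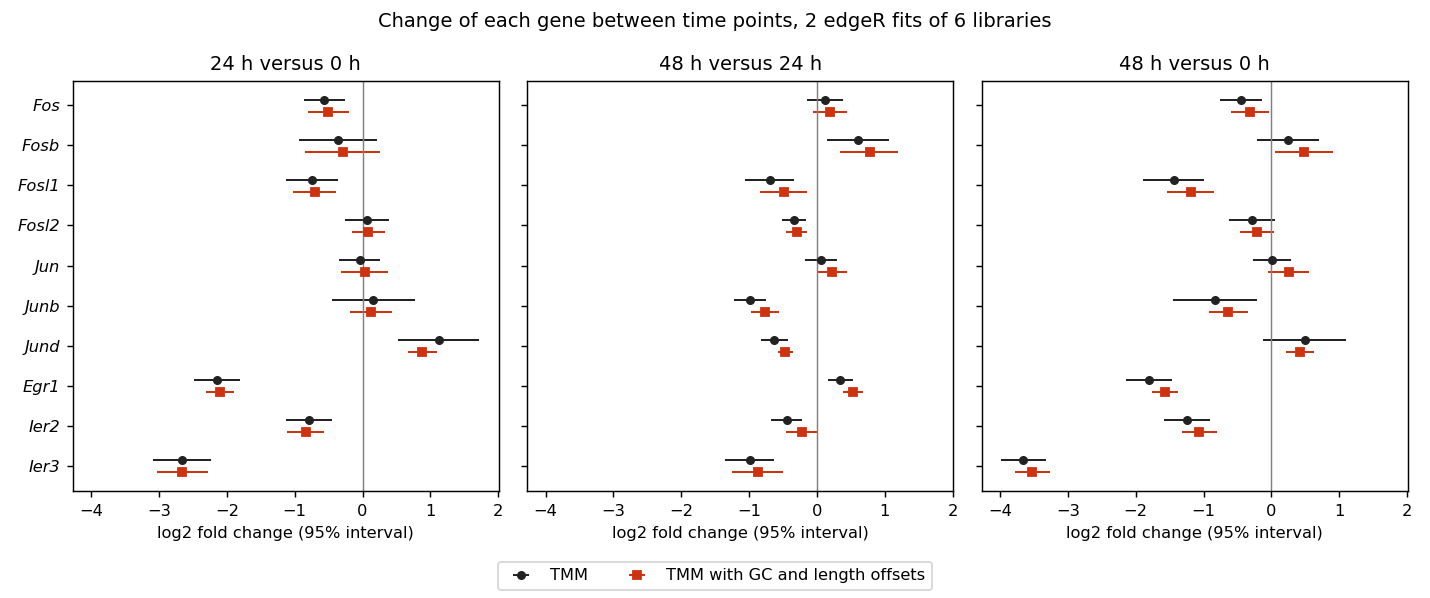
Log2 fold change of each gene (x axis) with its 95% interval for 3 comparisons, with black circles from the TMM fit and red squares from the fit with GC and length offsets. The intervals of Jund and Junb against 0 h narrow with the offsets, and Ier3 lies lowest in all 3 panels, level with Junb from 24 h to 48 h.

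Ier3, an early response gene that modulates ERK signalling and cell survival, fell furthest of the 10 against 0 h. It stood at 73.3, 88.1 and 93.8 CPM at 0 h, at 10.7, 13.0 and 16.4 CPM at 24 h and at 6.50, 6.74 and 6.99 CPM at 48 h. No time overlapped another. The level was 6.33-fold lower at 24 h (log2 -2.66 ± 0.18, adjusted p = 8.45e-05) and 12.6-fold lower at 48 h (log2 -3.66 ± 0.14, adjusted p = 8.48e-06), where 0.974% of the genes tested had a log2 fold change as low or lower. The step from 24 h to 48 h was -0.99 ± 0.16 (adjusted p = 0.00323). All 3 calls held without each library in turn, with log2 values of -2.83 to -2.53, -3.75 to -3.55 and -1.13 to -0.80. Ier2, an early response gene with a nuclear protein, stood at 51.0, 61.4 and 68.1 CPM at 0 h, at 31.4, 33.0 and 38.8 CPM at 24 h and at 23.3, 27.5 and 25.3 CPM at 48 h. Again the 3 times did not overlap. Relative to 0 h, Ier2 differed by -0.79 ± 0.15 (log2) after 24 h (adjusted p = 0.00657) and by -1.24 ± 0.14 after 48 h (adjusted p = 0.000703). The step from 24 h to 48 h, -0.45 ± 0.10 (adjusted p = 0.0128), was lost with GC and length offsets (log2 -0.23, adjusted p = 0.139), without 48 h replicate 1 (log2 -0.37, adjusted p = 0.0745) and in the fit of all 9 libraries (adjusted p = 0.092).

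Levels of different genes were compared per kilobase of exon (FPKM). Jund was the most abundant AP-1 subunit at each time, at 53.7 ± 20.5, 116 ± 8.22 and 75.4 ± 8.07 FPKM (SD, n = 3). It made up 72.3% ± 3.36, 84.8% ± 1.29 and 83.9% ± 0.873 of Jun family transcript, while the share of Junb fell from 16.9% ± 2.22 to 7.81% ± 0.304 at 48 h. Fos family transcript summed to 25.7 ± 2.04, 18.9 ± 1.63 and 17.2 ± 1.78 FPKM at the 3 times. Fos held 47.2% ± 3.77, 42.9% ± 1.89 and 51.5% ± 1.24 of it. The share of Fosl1 went from 27.0% ± 1.9 to 14.9% ± 1.68 between 0 h and 48 h while that of Fosl2 was 22.3% ± 2.22, 31.7% ± 1.73 and 27.6% ± 1.38, highest at 24 h. These shares were not tested and depend on gene length. An alternative chosen after the overlaps were seen left exon bases shared with other genes out of the length. The counts were left unchanged, so these lengths fit only if counting dropped reads of the shared bases, which is not known. With them Fosl1 held 46.3%, 39.5% and 28.9% at the 3 times and became the leading Fos family transcript at 0 h and 24 h. By the same lengths Jund stood at 113 ± 43.2, 245 ± 17.3 and 159 ± 17.0 FPKM and made up 83.6%, 91.6% and 91.1% of Jun family transcript. Outside AP-1, Ier3 fell from 75.2 to 5.96 FPKM between 0 h and 48 h, Ier2 from 39.5 to 16.7 and Egr1 from 36.1 to 10.4.

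**Figure D4:**
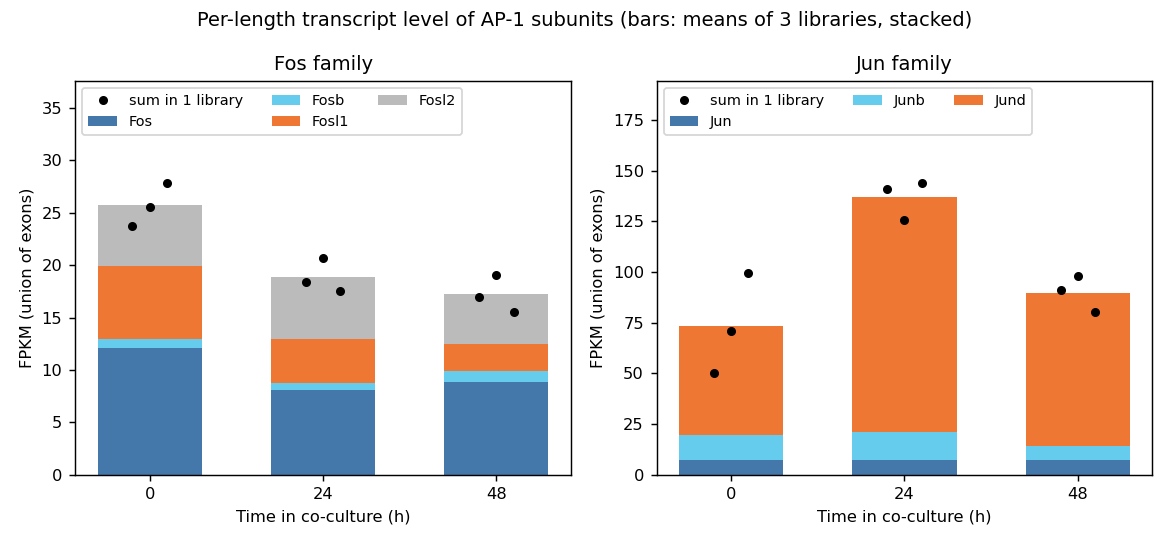
Stacked per-length level in FPKM (y axis, from 0) of the Fos family and the Jun family at 0, 24 and 48 h (x axis), with bars the means of 3 libraries and black points the sum in each library. Jund fills most of the Jun family bar at each time, and the Fos family bar is lower at both later times.

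The other genes of the pathway were read from a list of 97, of which 93 were tested. At 24 h, 43 were called (16 higher, 27 lower), at 48 h against 0 h 52 (18 higher, 34 lower) and from 24 h to 48 h 31 (10 higher, 21 lower), where 25.5%, 31.6% and 21.3% of all genes tested were called. The same 25.5% is the background of each count of a smaller list at 24 h below. The medians of the list were -0.11, -0.34 and -0.07 on the log2 scale. The list thus moved in both directions. Of 18 other immediate early transcription factors tested, 5 were called at 24 h: Egr2, Egr3, Maff and Nr4a1 fell and Nr4a2 rose, a share near that background. The orphan receptor Nr4a1 went from 58.5 ± 6.40 to 37.8 ± 2.31 CPM (log2 -0.62 ± 0.13, adjusted p = 0.0104) and its relative Nr4a2 from 1.08 ± 0.104 to 2.32 ± 0.194 CPM (log2 1.11 ± 0.25, adjusted p = 0.0163). The small Maf factor Maff went from 19.0 ± 6.37 to 8.09 ± 1.34 CPM (log2 -1.22 ± 0.26, adjusted p = 0.0129). These calls were lost without 0 h replicate 2 or 24 h replicate 3 (Nr4a1, adjusted p = 0.0547 and 0.0551), without 0 h replicate 2, 24 h replicate 1 or 24 h replicate 2 (Nr4a2, 0.0645, 0.0734 and 0.0719) and without 24 h replicate 1 or 2 (Maff, 0.0634 and 0.0604). These 3 and the partners, regulators and kinases below were named after their values were seen.

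Of 7 other dimer partners of AP-1 proteins tested, 3 were called at 24 h. Batf, which pairs with Jun proteins, went from 7.96 ± 1.21 to 2.68 ± 0.441 CPM (log2 -1.56 ± 0.22, adjusted p = 0.00191). Jdp2, a repressor that dimerizes with Jun proteins, went from 11.7 ± 2.43 to 4.66 ± 0.771 CPM (log2 -1.31 ± 0.21, adjusted p = 0.00382). Maf rose from 0.386 ± 0.139 to 2.79 ± 0.748 CPM (log2 2.83 ± 0.38, adjusted p = 0.00166). All 3 were called in the same direction at 48 h, and those calls held without each library in turn. A list of 9 regulators held Srf, its partners Elk1, Elk3, Elk4, Mrtfa and Mrtfb, the factor Creb1 and the EGR corepressors Nab1 and Nab2. At 24 h, 3 of them were called, all lower: both corepressors and, of SRF and its partners, Srf alone. Srf went from 139 ± 33.6 to 87.9 ± 3.75 CPM (log2 -0.65 ± 0.18, adjusted p = 0.0326), a call lost without 0 h replicate 2 or any of the 24 h libraries (adjusted p from 0.0932 to 0.125). Among the kinases upstream, Map2k2 and Rps6ka4 were called higher at 24 h, and Map2k1 and Rps6ka1 were called lower. The calls of Rps6ka1 and Rps6ka4 held without each library in turn. Map2k2 lost its call without 0 h replicate 2 or any of the 24 h libraries (adjusted p from 0.0784 to 0.147), and Map2k1 without 0 h replicate 2, 24 h replicate 1 or 24 h replicate 2 (0.0507 to 0.0857).

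Among 22 immediate early effectors, 7 were called higher and 9 lower at 24 h. The falls named by the rule were Phlda1, from 27.3 ± 4.87 to 1.99 ± 0.457 CPM (log2 -3.76 ± 0.24, adjusted p = 5.82e-05), Trib1, a pseudokinase, from 71.0 ± 4.90 to 14.9 ± 1.19 CPM (log2 -2.24 ± 0.12, adjusted p = 3.03e-05), and the kinase Plk3, from 58.4 ± 2.78 to 13.7 ± 1.55 CPM (log2 -2.07 ± 0.13, adjusted p = 6.15e-05). The rises were the prostaglandin synthase Ptgs2, from 1.71 ± 1.01 to 11.2 ± 3.03 CPM (log2 2.73 ± 0.48, adjusted p = 0.00593), the matrix protein Ccn1, from 10.7 ± 1.38 to 49.8 ± 8.71 CPM (log2 2.23 ± 0.18, adjusted p = 0.000146), and Gadd45b, from 7.22 ± 0.907 to 29.5 ± 4.54 CPM (log2 2.04 ± 0.17, adjusted p = 0.000187). Ccn1 and Ptgs2 are also expressed by fibroblasts, and the part of such cells in these rises and falls was not tested. Of 14 known AP-1 or FOSL1 targets tested, 4 were called higher (Lif, Plau, Cd44 and Timp1) and 6 lower at 24 h. Plaur, the urokinase receptor, went from 22.4 ± 2.80 to 3.17 ± 0.531 CPM and to 1.72 ± 0.519 CPM at 48 h (log2 -2.81 ± 0.18 and -3.69 ± 0.25, adjusted p = 6.67e-05 and 6.95e-05). Tgfb1 went from 97.5 ± 20.2 to 20.6 ± 0.580 and 13.9 ± 1.27 CPM (log2 -2.23 ± 0.17 and -2.81 ± 0.18, adjusted p = 0.000123 and 5.36e-05). The cyclin gene Ccnd1 went from 186 ± 21.1 to 76.3 ± 1.37 and 37.2 ± 1.21 CPM (log2 -2.32 ± 0.12 at 48 h, adjusted p = 2.1e-05), and Mmp9 from 53.9 ± 5.67 to 11.04 ± 1.78 CPM at 48 h (log2 -2.29 ± 0.16, adjusted p = 6.49e-05). The targets moved in both directions at 48 h against 0 h as well. There 10 of the 14 were called (background 31.6%), 6 lower and 4 higher (Mmp14, Cd44, Mmp13 and Timp1).

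From 24 h to 48 h the rule named 10 genes of the list, 8 lower and 2 higher. The growth factor gene Vegfa changed most, from 77.3 ± 13.5 to 30.6 ± 1.45 CPM (log2 -1.35 ± 0.12, adjusted p = 0.000192), and Ccnd1 fell by a further 1.05 ± 0.07 on the log2 scale (adjusted p = 6.64e-05). Plk3 went to 7.61 ± 1.08 CPM (log2 -0.86 ± 0.14, adjusted p = 0.0036) and the kinase Rps6ka4 from 17.6 ± 1.78 to 10.4 ± 0.460 CPM (log2 -0.78 ± 0.11, adjusted p = 0.0017). The ERK phosphatase Dusp5 and the early response factor Csrnp1 fell by 0.65 ± 0.08 and 0.63 ± 0.08 on the log2 scale (adjusted p = 0.000816 and 0.00132). The HSP70 genes Hspa1b and Hspa1a, near-identical copies whose reads the counting could split, fell by 0.85 ± 0.10 and 0.66 ± 0.10 (adjusted p = 0.000821 and 0.00186). The rises were the zinc finger factor Klf6, from 10.4 ± 1.04 to 16.8 ± 2.96 CPM (log2 0.68 ± 0.15, adjusted p = 0.0121), and the membrane metalloproteinase Mmp14, from 42.1 ± 2.84 to 64.6 ± 2.44 CPM (log2 0.61 ± 0.08, adjusted p = 0.0011). All 10 calls held without each library in turn, and that of Klf6 was lost in the fit of all 9 libraries (adjusted p = 0.142).

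Some markers of other cells also changed between the times. Of 10 fibroblast and stroma markers, 6 were called higher at 24 h and 1 lower (Thy1), and their summed level was 768 to 913 CPM at 0 h, 2786 to 3217 CPM at 24 h and 3871 to 4182 CPM at 48 h. All 5 myoid markers were called higher, from 9.48 to 11.4 CPM at 0 h to 143 to 204 CPM at 24 h and 259 to 317 CPM at 48 h. Sertoli markers (5 of 7 tested higher, and Sox9 and Gata1 lower) summed to 16.5 to 19.1 CPM at 0 h and 41.4 to 69.3 CPM at 24 h. Fshr, at 0 in each 0 h library, had at most 2 counts in any later one. Leydig markers (2 of 3 tested higher, Hsd3b1 and Cyp11a1) summed to 4.39 to 6.80 CPM at 0 h and 24.6 to 38.6 CPM at 24 h. Hsd3b1 and Insl3 were at 0 in each 0 h library, and Insl3 had only 4 to 6 counts in each later one. Endothelial markers summed to 43.3 to 47.3 CPM at 0 h and 14.4 to 18.7 CPM at 24 h, and macrophage markers to 15.6 to 18.3 and 6.21 to 10.1 CPM. Both sums held genes called in opposite directions at 24 h. Kdr and Pecam1 were lower and Tek was higher (1.42 to 3.50 CPM, log2 1.31, adjusted p = 0.0166). Cd68, which made up most of the macrophage sum, was lower and Csf1r was higher (0.295 to 1.08 CPM, log2 1.90, adjusted p = 0.0332). Germ cell markers summed to 1452 to 2435 CPM at 0 h and 1578 to 1841 CPM at 24 h, with 1 of 9 called (Pou5f1, lower). The list of heat shock and dissociation stress genes summed to 4651 to 5921 CPM at 0 h, 3910 to 4942 CPM at 24 h and 4013 to 4517 CPM at 48 h, with 1 of 9 called at 24 h (Hspb1, higher). At 48 h against 0 h, 6 of the 9 were called (background 31.6%, with 18.5% lower). Hspb1 was higher and the chaperone genes Hspa1a, Hspa1b, Hspa8, Hspe1 and Dnajb1 were lower. From 24 h to 48 h, 3 of the 9 were called (background 21.3%, with 12.7% lower): Hspa1a, Hspa1b and Dnajb1, all lower. The part of these cells and of handling in the levels of the 10 genes was not tested. In such bulk samples, fewer cells that express a gene and less RNA per cell cannot be told apart.

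The genes most like each of the 10 were found by the root mean square difference of log2 CPM, centred per gene, over the 9 libraries and 10957 genes. Egr1 was closest to the metallothionein gene Mt1, which stood at 377 ± 59.2, 78.0 ± 9.82 and 99.4 ± 6.70 CPM at the 3 times (difference 0.143). Ier3 was closest to the sphingosine kinase gene Sphk1, at 83.2 ± 19.8, 12.5 ± 1.03 and 6.35 ± 1.12 CPM (0.181). Fosl1 was closest to the salt-inducible kinase gene Sik1, at 239.5 ± 31.9, 148 ± 0.942 and 94.5 ± 12.5 CPM (0.088), Ier2 to Tagln2 (0.082), Fos to Tnfrsf10b (0.081), Jund to Mbd3 (0.109), Junb to Vps37d (0.148), Fosl2 to Myh9 (0.055) and Jun to Bpgm (0.062). Fosb stayed under 10 CPM and was not compared. Among the 10 themselves, Fosl1 and Ier2 were the most alike pair (0.161), and Jund and Ier3 the least (1.917). These are descriptions over libraries that share their times.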

How the data were processed

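The 9 libraries were EGFP-SSCs at 0, 24 and 48 h, 3 replicates each, with groups taken from the sample titles. The authors deposited raw counts per gene, 1 file a library. Fastp, HISAT2 and featureCounts with build GRCm38 are named in the submitters' processing notes, and their versions, the annotation and the strand setting are not given in the sources used here. Gene symbols and exon lengths came from GENCODE M21 (45229 of 46078 identifiers, with the other 849 holding at most 0.121% of counts). Reads that several genes share may be split or dropped by the counting.

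Counts were tested with edgeR 4.0.16 in R 4.3.3 (TMM, filterByExpr, glmQLFit, glmQLFTest, 2-sided), on the 6 libraries of each pair of times, with Benjamini-Hochberg adjustment over all genes tested. CPM, FPKM and log2 CPM (prior count 2) were computed here. GC and length offsets were splines with 5 and 4 degrees of freedom. Scripts were tested on simulated data. The kinase list was tested in full, but its count and 1 of its genes are not reported here. The genes and lists were chosen with earlier results of these data known. From the pathway list, up to 10 genes a comparison were named by the largest absolute log2 fold change among those called, with at least 10 CPM in a group and no overlap between groups; for each of the 10 genes with at least 10 CPM in a group, the 3 most alike genes were found and the closest named. Alternatives were DESeq2 (1.42.0), other scalings and filters, all 9 libraries in 1 fit, a replicate block, the offsets, other gene lengths and leaving out each library. With 3 against 3 libraries an exact permutation test of a single gene cannot go below 0.1, so it was not used. Replicates may differ only in culture of 1 line, so p-values measure the spread between these samples.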

Additional observations from a re-analysis of the deposited data

How the results depend on the processing

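Of the log2 fold changes of the 10 genes, 219 of those refitted under other settings kept their direction and call, 8 gained a call, 10 lost one and 3 changed sign. With 1 library left out, 153 were kept, 4 gained and 17 lost a call and 6 changed sign. The sign changes were all of genes not called: Jun at 24 h with library size alone (0.068), at least 10 counts in every library (0.002), GC and length offsets (0.032) and without 24 h replicate 2 (0.019), Jun at 48 h against 0 h without 0 h replicate 2 (-0.026) or 48 h replicate 2 (-0.069), Jun from 24 h to 48 h without 48 h replicate 2 (-0.015), Fosl2 at 24 h without 0 h replicate 1 (-0.061) and Junb at 24 h without 0 h replicate 1 (-0.097); the other end of these leave-one-out ranges was -0.145, 0.062 and 0.186 for Jun in the 3 comparisons, 0.17 for Fosl2 and 0.421 for Junb. With 1 library left out, the genes called numbered 2607 to 6023, 3471 to 7116 and 1857 to 4356 (24 h against 0 h, 48 h against 0 h, 48 h against 24 h), the calls among the 10 genes 3 to 6, 4 to 7 and 4 to 7, and those in the pathway list 31 to 51, 40 to 63 and 17 to 34. In 1 fit of all 9 libraries, 1043 genes, 3 of the 10 and 10 of the pathway list were called from 24 h to 48 h, against 3732, 7 and 31, and the common biological coefficient of variation was 0.22 and 0.228 in the fits with 0 h and 0.115 in that without. Same-numbered libraries did not deviate together more than others (correlations -0.28 to 0.20, against -0.39 to 0.38 for different numbers). Deviations from a mean of 3 libraries are tied to each other, so this cannot exclude that the numbers pair them. With a replicate block, 3007, 4013 and 2497 genes and 5, 4 and 7 of the 10 were called, and Fos lost both calls (adjusted p = 0.064 and 0.105). The 54 pathway results followed (8 lost and 3 gained a call under other settings, and 11 lost and 3 gained one with 1 library left out) kept their direction in every refit. Depth limited Fosb most, at 69 to 167 counts a library.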
